A study of Mus musculus with 42 samples.

Results

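The cell makes its ribosomes in the nucleolus, and the genes described here encode proteins of that assembly line together with the core of the RNA exosome. They were taken as all genes whose symbol is Nop, Nol, Utp, Rrp, Gnl, Noc or Exosc followed by a number and at most 1 letter, without pseudogenes, which gave 30 of the 15737 genes with a symbol of their own in the rows used here. These rows cover chromosomes 1 to 11, so family members on other chromosomes are not analysed here. By known role, 3 of the 30 belong to small nucleolar ribonucleoproteins (snoRNPs), 10 act on the small ribosomal subunit, 8 on the large subunit and 7 are exosome subunits. The name does not hold for the last pair: Nol3 encodes an inhibitor of apoptosis, and no place in ribosome assembly is established for Nol4l.

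RNA was sequenced from ICR mouse embryos, 3 per library, in 9 groups with 2 samples each. Early 2-cell embryos were taken at 34 h after hCG, late 2-cell embryos at 48 h and 4-cell embryos at 58 h. At the late 2-cell stage there were control embryos given the DMSO vehicle, embryos cultured with 0.01 µM FK866, an inhibitor of the NAD+ salvage enzyme NAMPT, embryos with 0.01 µM FK866 and 10 µM NMN, the product of that enzyme, embryos with 10 nM TSA, an inhibitor of histone deacetylases, and embryos in which Sirt1 was knocked down at the zygote stage with siRNA, Trim21 mRNA and an antibody. The study's injected control for the knockdown has no column of its own here, so the knockdown is set against the culture control. At the 4-cell stage there were control, FK866 and FK866+NMN embryos at the same doses. No group carried an engineered allele, and each library pools whole embryos, so that a change in some blastomeres and a smaller change in all of them cannot be told apart, nor can less RNA per cell and fewer cells.

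Ribosomal RNA is cut and modified from a long precursor. Box C/D snoRNPs guide its methylation and H/ACA snoRNPs its pseudouridylation, the small subunit processome assembles on its leading part, other factors build the large subunit, and the exosome degrades or trims RNA from its 3′ end. The fertilized mouse egg lives on ribosomes stored in the oocyte, and transcription of ribosomal RNA resumes in the 2-cell embryo. The values are FPKM, fragments scaled to exon length and to library depth, and can therefore be compared between genes.

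For the genes on which the results turn, the stretch around the start of the gene is shown, from 250 bases before it to 50 after it, as listed by RefSeq on GRCm38.p6. Such windows were given for 24 of the 30 genes, with 300 bases each; Gnl2, Nol6, Nop53, Utp11, Exosc9 and Nol3 had none. Nop2, Rrp9 and Noc2l are printed because they had 3 of the largest differences between early and late 2-cell embryos, Noc4l because it fell with FK866+NMN, and Rrp8 because it stood lower in late than in early embryos. Nop2 lies at chr6:125131633-125131932 on the plus strand, Rrp9 at chr9:106477059-106477358 on the plus strand, Noc2l at chr4:156235765-156236064 on the plus strand, Noc4l at chr5:110653333-110653632 on the minus strand and Rrp8 at chr7:105737336-105737635 on the minus strand. Each is written 5′ to 3′ along its gene, and capitals mark the motifs found.
Nop2: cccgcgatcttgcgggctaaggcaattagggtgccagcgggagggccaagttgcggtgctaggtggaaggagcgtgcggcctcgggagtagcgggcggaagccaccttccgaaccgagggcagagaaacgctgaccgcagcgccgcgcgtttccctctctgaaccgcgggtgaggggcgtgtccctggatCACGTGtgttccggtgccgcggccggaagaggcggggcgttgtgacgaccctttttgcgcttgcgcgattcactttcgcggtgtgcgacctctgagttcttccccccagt
Rrp9: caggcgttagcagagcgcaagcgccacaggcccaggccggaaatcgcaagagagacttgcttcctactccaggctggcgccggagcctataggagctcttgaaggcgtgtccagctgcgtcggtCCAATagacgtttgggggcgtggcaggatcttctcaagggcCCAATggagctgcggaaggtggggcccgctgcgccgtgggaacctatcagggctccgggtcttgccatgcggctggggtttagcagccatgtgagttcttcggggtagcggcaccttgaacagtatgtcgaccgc
Noc2l: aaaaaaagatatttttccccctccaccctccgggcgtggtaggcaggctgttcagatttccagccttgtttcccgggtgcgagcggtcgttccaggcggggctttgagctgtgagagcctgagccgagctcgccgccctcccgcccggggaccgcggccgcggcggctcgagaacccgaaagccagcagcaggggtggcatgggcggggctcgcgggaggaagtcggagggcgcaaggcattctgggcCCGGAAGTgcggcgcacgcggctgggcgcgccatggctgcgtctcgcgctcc
Noc4l: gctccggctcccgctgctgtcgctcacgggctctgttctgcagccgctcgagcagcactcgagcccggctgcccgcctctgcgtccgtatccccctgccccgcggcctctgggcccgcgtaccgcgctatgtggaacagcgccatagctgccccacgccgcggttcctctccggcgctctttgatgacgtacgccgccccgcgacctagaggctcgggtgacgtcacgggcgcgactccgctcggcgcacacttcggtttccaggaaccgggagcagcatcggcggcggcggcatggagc
Rrp8: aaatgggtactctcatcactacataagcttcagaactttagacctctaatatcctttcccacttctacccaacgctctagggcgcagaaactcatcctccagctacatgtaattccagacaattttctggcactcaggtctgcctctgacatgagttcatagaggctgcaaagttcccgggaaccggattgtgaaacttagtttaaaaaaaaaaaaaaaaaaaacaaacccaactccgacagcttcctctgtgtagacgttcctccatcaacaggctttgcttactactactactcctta

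The motifs searched, on both strands, were the E-box CACGTG, the YY1 motif AAGATGGC, the ETS motif ACTTCCGG and the CCAAT box. No match overlapped another in the windows printed. The E-box stood in the windows of 6 of the 24 genes, Nop2, Utp4, Utp14b, Utp20, Utp25 and Exosc5, a share of 25%, against 8.09% of the 27025 genes with a window. In Nop2 it began 60 bases before the start. The ETS motif was found for 4 genes, Noc2l, Rrp15, Utp3 and Utp4, or 16.7% against 4.31% of all genes, and in Noc2l it began 2 bases before the start. The CCAAT box went the other way, with 6 genes or 25% against 41.1%, and Rrp9 held it at 126 and 85 bases before the start. The YY1 motif occurred in Exosc2 alone, or 4.17% against 3.19% of all genes. The windows of Noc4l and Rrp8 held none of the 4 motifs. A gene was counted where any of its windows held the motif, and the 24 genes had 31 windows. The 27025 genes were counted in the same way and were not limited to genes expressed here. These matches are letters in a window and were not tested further.

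The deposited table has 1 column for each group. Multiplied by exon length, 97.6% to 97.9% of the values tested in a column fell on whole numbers of reads, within the rounding of the last digit deposited, and 7 columns were in this way resolved into 2 libraries each, while a single library could be seen in the column headed 4-cell FK866 and likewise in that headed 4-cell FK866+NMN. The 16 libraries held 3169677 to 10003481 reads; within a column the library with more reads is called A and is given first below. All 30 genes could be split between libraries in all 7 columns. Between libraries of the same column, Pearson's r over the 30 genes was 0.883 to 0.956, except for 0.586 in late 2-cell FK866+NMN embryos, where 15 of the 30 genes differed by more than 2-fold between the libraries. Those libraries detected 5589 and 6609 genes, against 6566 to 10356 in the others. In 5 columns the group in the header is in dispute. For the 4-cell groups this rests on values that the paper tabulates. By the tables, 4-cell control is the column headed late 2-cell TSA, 4-cell FK866 the column headed late 2-cell Sirt1 and 4-cell FK866+NMN the column headed 4-cell control, with 84 of 84 listed values equal to that column within 6 digits in each case. The column headed 4-cell FK866+NMN was taken for the Sirt1 knockdown by direction only. In it 773 of 821 listed genes had the listed direction, against 430 to 703 in the other columns. The column headed 4-cell FK866 then remained for TSA, for which no listed values or directions were compared.

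Measured values bear on these headers. Sirt1 stood at 32.4 and 73.1 FPKM in the column headed late 2-cell Sirt1, against 86.6 and 66.2 FPKM in late 2-cell control libraries, whereas the column headed 4-cell FK866+NMN held 11.3 FPKM and the column headed 4-cell FK866 held 7.61 FPKM. Genes that mark the 2-cell embryo, 9 or 10 per library, summed to 14.5 to 50.3 FPKM in the columns headed late 2-cell TSA, late 2-cell Sirt1 and 4-cell control, and to 126 to 587 FPKM in all other libraries, including those headed 4-cell FK866 and 4-cell FK866+NMN. Markers of the later cleavage embryo, 5 in the rows, were highest in the former columns, at 47.1 to 130 FPKM against 8.52 to 30.7 FPKM elsewhere. Oocyte and maternal markers were 5 in the early 2-cell libraries and 6 in all others, so the early sums cover a smaller set. They summed to 292 and 308 FPKM in early 2-cell and 2284 and 2216 FPKM in late 2-cell control libraries. With FK866 the sums were 1878 and 1662 FPKM, and with FK866+NMN 1652 and 1737 FPKM. In the columns headed late 2-cell TSA, late 2-cell Sirt1 and 4-cell control they were 3266 to 4098 FPKM. The libraries headed 4-cell FK866 and 4-cell FK866+NMN held 1020 and 1325 FPKM. The 30 genes were also highest in the columns with low 2-cell markers. Their share of the reads in the rows was lower in the library headed 4-cell FK866 (0.172%) than in early 2-cell libraries (0.201% and 0.225%). The part of the maternal markers in the results below was not tested. Of 6 cumulus and granulosa cell markers no library exceeded a sum of 8.39 FPKM, and none of the sperm markers was in the rows. Comparisons between early 2-cell, late 2-cell control, FK866 and FK866+NMN embryos do not depend on the disputed headers and are given first. In the columns headed late 2-cell control, FK866 and FK866+NMN, 117, 118 and 117 of 118 listed values were equal within 6 digits. The early 2-cell column was taken by its header alone, since no listed values of that group were compared. All other comparisons are given for the columns as headed and then by the tables.

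**Figure D1:**
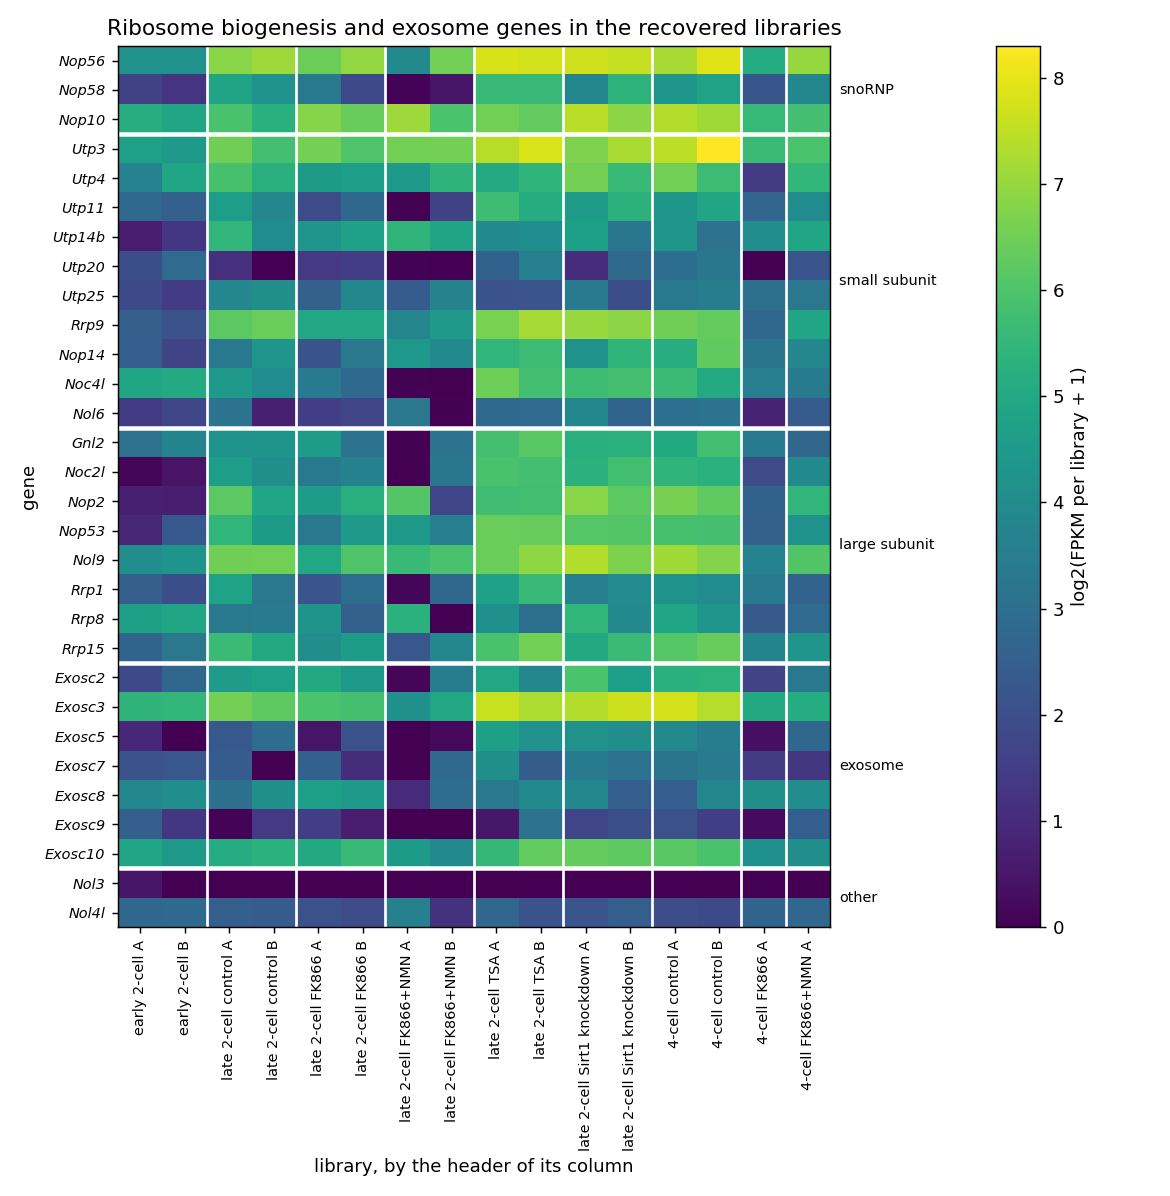
Level of each of the 30 genes, as log2(FPKM per library + 1), in each of the 16 recovered libraries, with columns of the table in the order of their headers and genes grouped by role. The early 2-cell libraries and the library headed 4-cell FK866 are dark for most genes, the columns headed late 2-cell TSA, late 2-cell Sirt1 and 4-cell control are brightest, and Nol3 has reads in 1 library only.

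In the late 2-cell control libraries the most abundant of the 30 transcripts was Nop56, a core protein of box C/D snoRNPs, at 111 and 135 FPKM. Exosc3, a cap subunit of the exosome, followed at 93.4 and 74.2 FPKM, Nol9, a kinase that acts in processing of the internal spacer, at 89.1 and 92.5 FPKM, and Rrp9, a protein of the U3 snoRNP, at 72.6 and 84.0 FPKM. Utp3 stood at 89.6 and 55.6 FPKM. The libraries of Exosc3 and Utp3 overlapped those of Nol9 and Rrp9, so their order is not resolved, whereas Nol9 lay above Rrp9 in both libraries. At the low end, Exosc9, a ring subunit of the exosome, stood at 0.0651 and 1.58 FPKM, and Utp20, a large scaffold protein of the small subunit processome, at 1.17 and 0 FPKM. Nol3 had 7 reads in 1 early 2-cell library and 0 in the other 15 libraries, where a count of 0 allows up to 3 reads. It is counted among the 30 but passed the filter of 1 FPKM in no comparison.

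Shares are given of the reads in the rows used here, not of all reads of a library. These rows held 48.1% and 48.2% of all reads of the early 2-cell libraries. For the late 2-cell control libraries they held 58.8% and 59.0%. The 30 genes took up 0.201% and 0.225% in the early 2-cell libraries and 0.637% and 0.515% in the late 2-cell control libraries. The share was 0.378% and 0.429% with FK866 and 0.330% and 0.337% with FK866+NMN. Every late 2-cell control library thus lay above all libraries of those other groups. The 3 columns with low 2-cell markers held 0.919% to 1.05%, the library headed 4-cell FK866 held 0.172%, the lowest of the 16, and the library headed 4-cell FK866+NMN held 0.403%. The median level over the 30 genes was 4.71 and 5.38 FPKM in early 2-cell, 23.8 and 17.2 FPKM in late 2-cell control, 13.1 and 12.4 FPKM in FK866 and 6.55 and 8.25 FPKM in FK866+NMN libraries.

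**Figure D2:**
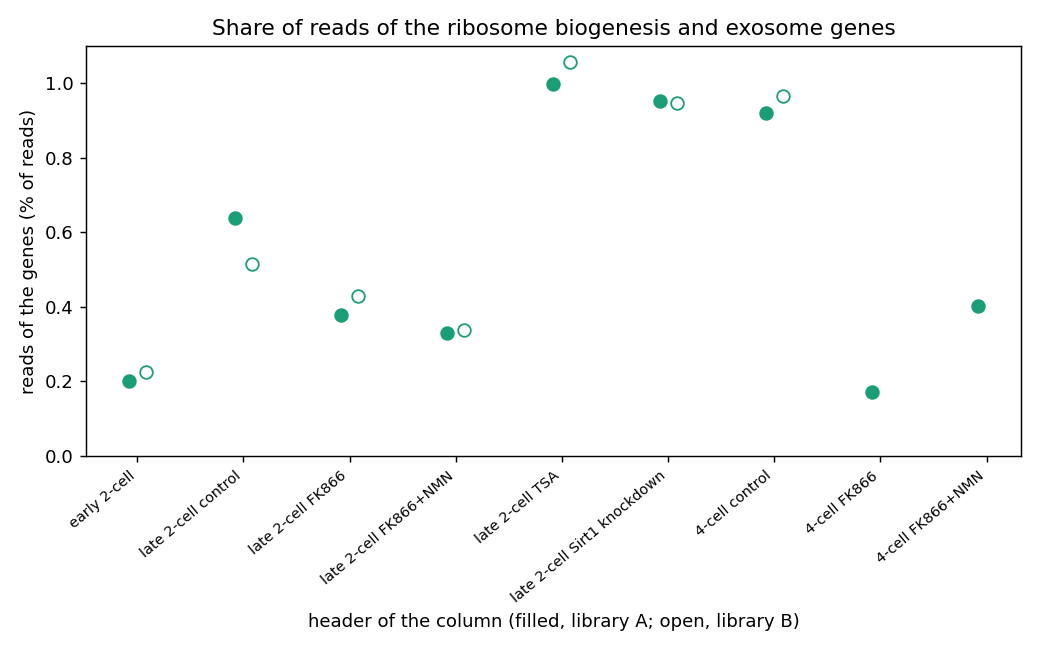
Share of the reads in the rows that fell on the 30 genes, in percent (vertical axis, from 0), for each recovered library, by the header of its column; filled circles are library A and open circles library B. The late 2-cell control libraries, at 0.637% and 0.515%, lie above the early 2-cell, FK866 and FK866+NMN libraries, and the 6 libraries of the columns headed late 2-cell TSA, late 2-cell Sirt1 and 4-cell control lie highest.

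The first comparison asks how these genes changed while the embryo passed from the early to the late 2-cell stage. In 29 of the genes either column reached 1 FPKM per library. Of these, 17 were more than 2-fold higher in late 2-cell control than in early 2-cell embryos and 3 were more than 2-fold lower, on the scale of log2(FPKM + 1), where changes of low genes come out too small. Over all 9514 genes tested, 32.2% were higher and 31.7% lower by that measure. The median difference was 1.60 over the 29 genes and -0.0032 over all genes. In 21 genes both late libraries lay above both early ones, and in 4 both lay below, against 30.8% and 34.2% of all genes. In limma, fitted over all 11779 genes and 16 libraries, 12 of the 29 rose and none fell at an adjusted p below 0.05, where 7.64% of all genes rose and 7.35% fell; at an unadjusted p below 0.05, 17 were higher and 1 lower, against 13.5% and 14.5% of all genes. An exact permutation test of 1 gene in 2 against 2 libraries cannot give a p below 0.333, so that limma is the test used throughout. Its p-values measure the spread between libraries and no more.

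Among the snoRNP genes, Nop58, the partner of Nop56, stood at 2.06 and 1.36 FPKM in the early and at 27.9 and 17.6 FPKM in the late libraries. Nop56 itself stood at 17.3 and 17.6 FPKM in the early and 111 and 135 FPKM in the late libraries. Neither gene's groups overlapped, and both rose, by 3.11 ± 0.64 (SE, adjusted p = 0.00961, limma) and 2.75 ± 0.66 (adjusted p = 0.020, limma) on the log2 scale. Nop10, a protein of H/ACA snoRNPs, had 34.9 and 29.1 FPKM early and 58.7 and 37.9 FPKM late, a difference of 0.58 between columns that did not pass the test (adjusted p = 0.43, limma).

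Of the 10 small subunit genes, Rrp9 had the smallest p of all 30. Its level was 4.72 and 3.38 FPKM in the early libraries and 72.6 and 84.0 FPKM in the late ones, a rise of 3.98 ± 0.35 (SE, adjusted p = 0.000117, limma). Utp14b, a retrocopy related to Utp14a, rose from 0.577 and 1.51 FPKM to 43.5 and 15.5 FPKM. It shares 244 exon bases on the same strand with Acsl3, so part of its reads may belong to that gene. Utp3 and Utp25, both of the processome, also rose, to 89.6 and 55.6 FPKM from 25.9 and 21.2 FPKM and to 13.4 and 16.7 FPKM from 2.61 and 1.78 FPKM. Utp4, Utp11 and Nop14 were more than 2-fold higher with no overlap between libraries, but had adjusted p of 0.165, 0.132 and 0.0986 (limma). Utp20 stood lower late, with 2.94 and 6.42 FPKM early and 1.17 and 0 FPKM late, without passing the test (adjusted p = 0.116, limma). Noc4l, which forms a complex with Nop14, stood at 28.6 and 32.7 FPKM early and 21.6 and 15.2 FPKM late (adjusted p = 0.28, limma), so that the members of this pair differed in sign, neither passing the test.

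The large subunit genes held the largest rises. Nop2, a methyltransferase of ribosomal RNA, had 10 and 8 reads in the early libraries, or 0.640 and 0.622 FPKM, and 72.6 and 28.3 FPKM in the late ones, a rise of 4.83 ± 1.09 (SE, adjusted p = 0.015, limma). Noc2l, a nucleolar protein of early large subunit precursors, had 2 and 7 reads early, or 0.0853 and 0.362 FPKM, and 23.6 and 16.4 FPKM late, a rise of 4.09 ± 0.83 (SE, adjusted p = 0.00933, limma). Both genes thus had 10 reads or fewer in each library at 34 h and stood at 16.4 FPKM or more at 48 h. Nop53, which brings the exosome to the large subunit precursor, Nol9 and Rrp15 rose as well, by 3.40, 2.34 and 2.36 on the log2 scale. Rrp8, a methyltransferase of the large subunit RNA, went the other way, with 25.4 and 28.9 FPKM early and 9.26 and 9.45 FPKM late. Its libraries did not overlap, yet with an SE of 1.38 in the fit over all columns its adjusted p was 0.553 (limma). Rrp1 and Gnl2, a nucleolar GTPase, differed by 1.98 and 0.79 between columns and did not pass the test.

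Of the exosome, the median was the smallest of the 4 roles. Of its 7 subunits 1, Exosc5, a ring subunit, rose at the adjusted threshold, from 0.962 and 0 FPKM to 3.84 and 6.78 FPKM (2.13 ± 0.63, SE, adjusted p = 0.049, limma). Exosc2 had 2.58 and 5.97 FPKM early and 22.2 and 25.6 FPKM late, with no overlap but an adjusted p of 0.14 (limma). Exosc3 and Exosc10, the nuclear exonuclease, were higher in both late libraries by 0.96 and 0.51 between columns. Exosc7, Exosc8 and Exosc9 overlapped between the groups. The median difference was 2.76 over the 3 snoRNP genes, 1.59 over the small subunit genes, 2.35 over the large subunit genes and 0.51 over the exosome genes, and these medians were not tested against each other.

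**Figure D3:**
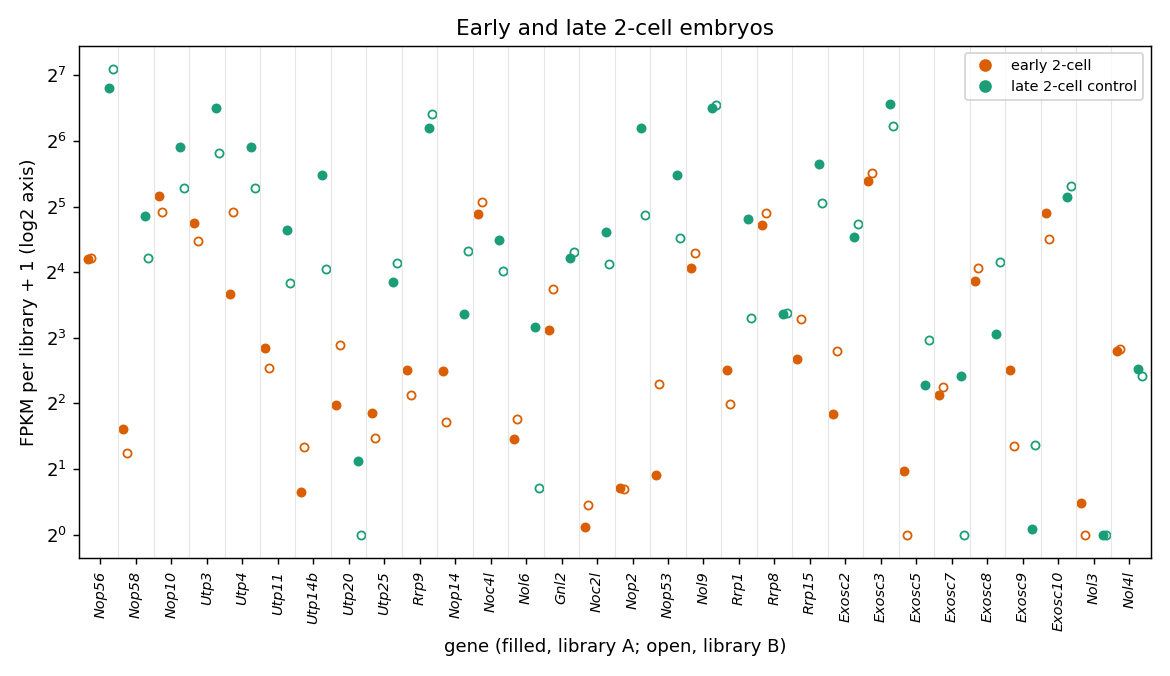
FPKM + 1 of each gene in the early 2-cell (orange) and late 2-cell control (green) libraries on a log2 axis; filled circles are library A and open circles library B. For Nop2, Noc2l, Rrp9, Nop58 and Utp14b the green circles lie far above the orange ones, for Rrp8 and Noc4l below them, and for Exosc7, Exosc8 and Exosc9 they overlap.

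A list of other factors of ribosome biogenesis and of the exosome, 84 of which are in the rows, was read beside the 30 genes. Of these 84, 47 were more than 2-fold higher late and 9 lower, against 32.2% and 31.7% of all genes, with a median of 1.38. In limma 25 rose and 3 fell, where 7.64% of all genes rose and 7.35% fell. The rises were spread over the box C/D and H/ACA factors, polymerase I, the small subunit and the large subunit, where no gene fell in limma, while the 14 exosome cofactors and nucleases split into 2 that rose and 3 that fell, with a median of -0.20. The largest rises were those of Pwp1, at 0.975 FPKM per library early and 56.2 FPKM late (4.82 ± 0.46, SE, adjusted p = 0.000155, limma), and Nsun5, a methyltransferase of ribosomal RNA. The largest falls were those of Zcchc8, of the complex that brings nuclear RNA to the exosome, from 101 to 14.9 FPKM per library, and of the exonuclease Eri1, from 6.22 to 0.562 FPKM per library.

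The second comparison asks what FK866 did to these genes at the late 2-cell stage. None of the 29 genes tested was more than 2-fold higher and 10 were more than 2-fold lower than in control embryos, where 18.1% and 20% of all 9022 genes were higher and lower. The median was -0.67 over the 29 genes and -0.065 over all genes. In 15 genes both FK866 libraries lay below both control libraries and in 3 both lay above, against 20.3% and 16.6% of all genes. No gene of the 29 passed the adjusted threshold in limma, as did few of all genes, 0.255% upwards and 0.144% downwards; at an unadjusted p below 0.05, 5 were lower and 1, Nop10, was higher, against 4.25% and 3.58% of all genes. Without FK866 library A, 6 instead of 10 genes were past 2-fold, and without control library A the median was -0.37. The late 2-cell control libraries serve this comparison and the one above, which are not independent.

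The 10 genes past 2-fold were Nop58 of the snoRNPs, Utp4, Utp11, Rrp9, Nop14 and Noc4l of the small subunit, Nop53, Rrp1 and Rrp15 of the large subunit, and Exosc5. In all 10 the FK866 libraries did not overlap the control libraries. Rrp9 had the smallest p, with 72.6 and 84.0 FPKM in control and 30.7 and 30.2 FPKM in FK866 embryos, a difference of -1.33 ± 0.35 (SE, adjusted p = 0.212, limma). Its replicates lay close to each other in both groups, and neither group of libraries approached the early 2-cell values of 4.72 and 3.38 FPKM. Utp11, of the processome, was at 24.1 and 13.3 FPKM in control and 2.77 and 5.82 FPKM in FK866 embryos (adjusted p = 0.358, limma). Nop58 was at 27.9 and 17.6 FPKM in control and 9.15 and 2.62 FPKM in FK866 embryos (adjusted p = 0.361, limma). Both genes were thus lower in either FK866 library than in either control library, with wide gaps between the libraries of 1 group.

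Other genes overlapped the control libraries. Nop56 was at 86.3 and 123 FPKM with FK866 and Utp3 at 94.5 and 64.0 FPKM. Nop10 stood higher in both FK866 libraries, at 109 and 81.4 FPKM against 58.7 and 37.9 FPKM, a difference of 0.98 (adjusted p = 0.56, limma). Exosc8 and Utp20 were the other genes with both FK866 libraries above the control libraries. Over roles, the median was -0.90 for the small subunit, -0.90 for the large subunit and 0.13 for the exosome, where 1 of 7 genes was past 2-fold. The list of 84 other factors gave 25 of 83 lower and none higher, against 20% and 18.1% of all genes. Its median was -0.67, and no gene of it passed the adjusted threshold in limma. Its exosome cofactors had a median of 0.14.

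**Figure D4:**
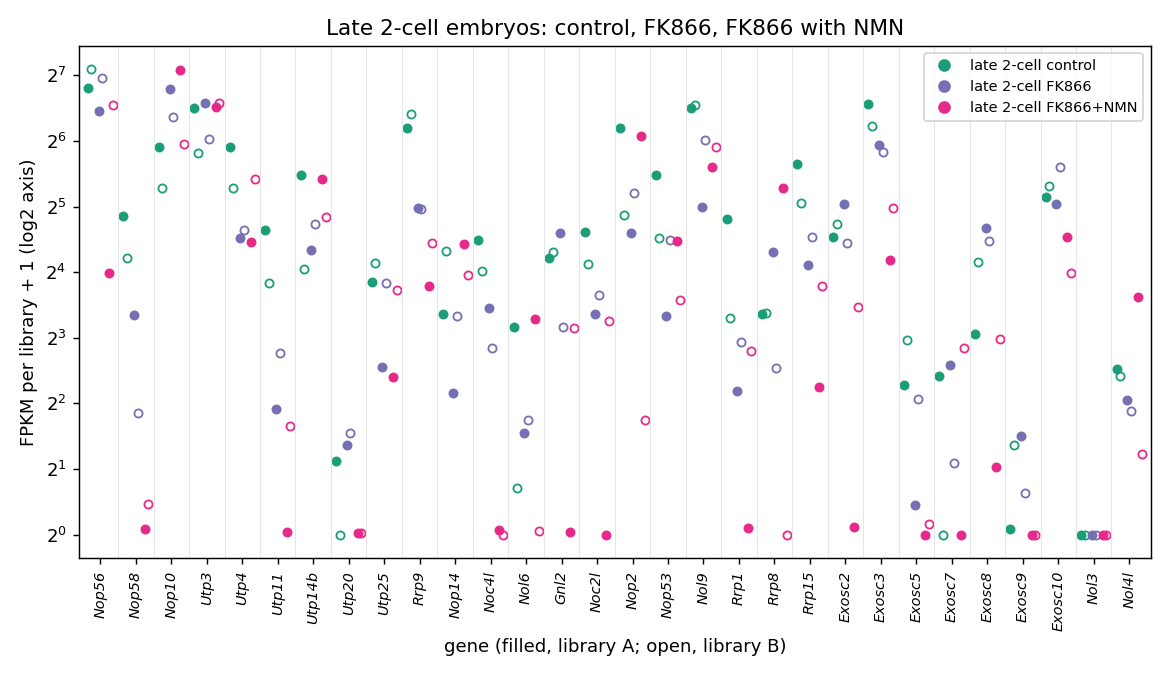
FPKM + 1 of each gene in late 2-cell control (green), FK866 (violet) and FK866+NMN (pink) libraries on a log2 axis; filled circles are library A and open circles library B. Violet circles lie below green ones for Nop58, Utp11, Rrp9 and Noc4l, and at or near 1, which is no read or a few reads, lie both pink circles of Noc4l and the filled one alone of Noc2l, Gnl2 and Exosc2.

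The third comparison asks whether NMN, added with FK866, brought the genes back. Of the 29 genes tested, 1 was more than 2-fold higher with FK866+NMN than with FK866 alone and 13 were more than 2-fold lower, against 18.9% and 33.3% of all 8605 genes. The median was -0.82 over the 29 genes and -0.24 over all genes. In 14 genes both FK866+NMN libraries lay below both FK866 libraries and in 2 above, against 25% and 9.75% of all genes. In limma 1 gene, Noc4l, fell and none rose, where 1.83% of all genes fell and 0.255% rose; at an unadjusted p below 0.05, 11 were lower and 1 higher, against 10.8% and 2.55% of all genes. Without FK866 library B, 9 instead of 14 genes were past 2-fold. The gene past 2-fold upwards was Nop14, with 20.6 and 14.6 FPKM against 3.47 and 9.10 FPKM (adjusted p = 0.356, limma).

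Against the control embryos, none of 27 genes tested was more than 2-fold higher with FK866+NMN and 13 were lower, where 21% and 36.2% of all 8639 genes were. The median was -0.99 over the 27 genes and -0.35 over all genes. Both FK866+NMN libraries lay below both control libraries in 17 genes and above them in 2, against 27.8% and 11% of all genes, and 5 genes fell in limma, where 2.89% of all genes fell and 0.543% rose; at an unadjusted p below 0.05, 13 were lower and none higher, against 12.9% and 3.29%. The 5 were Nop58, Utp11, Rrp9, Noc4l and Exosc3. Rrp9 was at 12.8 and 20.8 FPKM, below the FK866 libraries as well as the control ones, with a difference from control of -2.19 ± 0.35 (SE, adjusted p = 0.0121, limma). Exosc3 was at 17.1 and 30.5 FPKM against 93.4 and 74.2 FPKM in control (-1.82 ± 0.34, SE, adjusted p = 0.021, limma). The other 3 had few reads in at least 1 library. Noc4l had 1 and 0 reads, Utp11 had 1 and 54 reads and Nop58 had 6 and 22 reads, and the size of their fitted falls depends on the pseudocount. The comparisons with FK866 and with control share the FK866+NMN libraries, and their counts are not independent.

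The FK866+NMN libraries were also the most unlike each other. Nop2 stood at 66.5 FPKM in 1 and 2.36 FPKM in the other, Rrp8 at 38.0 and 0 FPKM, Nop56 at 14.8 and 92.5 FPKM and Noc2l at 0 and 8.58 FPKM. For Rrp8 they lay on either side of the control libraries, for Nop2 1 lay between the control libraries and the other below them, and for Nop56 and Noc2l both lay below both control libraries. With FK866+NMN library A alone the median difference from control was -1.67 over the genes tested. Few genes were detected in these libraries, and the levels of the 30 genes were low in them. Across libraries these did not go together throughout. Library A headed late 2-cell TSA detected 6566 genes with 0.997% of the reads in the rows on the 30 genes. Early 2-cell library A detected 10356 genes with 0.201%. The part of the number of detected genes in the result was not tested. In the list of 84, 5 of 79 were higher and 29 lower than with FK866, against 18.9% and 33.3% of all genes. Set against control, 2 of 83 were higher and 47 lower, where 21% and 36.2% of all genes were. The 2 genes of the list that fell against FK866 in limma, where 1.83% of all genes fell, were Ddx10 and Wdr3. Both act in the small subunit processome and stood at 0.149 and 0 FPKM per library against 11.8 and 9.91 FPKM.

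The remaining comparisons rest on columns whose identity is disputed. The median of the 29 genes in the 4-cell control against the late 2-cell control was 0.79 by the headers, beside -0.21 over all genes, and 0.90 by the tables, beside -0.44. By the headers 10 genes were more than 2-fold higher and 1 lower, against 24.2% and 33.8% of all genes, whereas by the tables the numbers were 13 and 1, against 23.2% and 41.3%. In limma 2 genes rose under each reading and none fell, where 2.47% of all genes rose and 4.21% fell by the headers, and 3.63% and 7.39% by the tables. Utp3 was called under both readings, at 177 and 314 FPKM in the column headed 4-cell control and 168 and 225 FPKM in the column headed late 2-cell TSA, against 89.6 and 55.6 FPKM in late 2-cell control (adjusted p = 0.0306 and 0.0438, limma). The other called gene was Nop10 by the headers, at 160 and 137 FPKM (adjusted p = 0.048, limma), and Noc4l by the tables, at 86.9 and 53.8 FPKM (adjusted p = 0.0189, limma). In this comparison both readings thus gave the same direction for the median and for Utp3. Without 4-cell control library A, 7 instead of 11 genes were past 2-fold by the headers.

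For FK866 at the 4-cell stage the readings parted. By the headers, 24 of 29 genes were more than 2-fold lower and none higher, against 32.9% and 41.8% of all 9368 genes, with a median of -2.31 where that of all genes was 0.42. In limma 14 of the 29 fell, where 7.45% of all genes fell and 12.8% rose. Utp4, a processome protein, stood at 1.73 FPKM in the library headed 4-cell FK866 and at 91.3 and 50.3 FPKM in the column headed 4-cell control (-4.65 ± 0.69, SE, adjusted p = 0.00157, limma). Rrp9 stood at 5.97 FPKM against 90.4 and 79.2 FPKM (-3.62 ± 0.43, SE, adjusted p = 0.000507, limma), and Nol9 at 11.7 FPKM against 138 and 108 FPKM (-3.28 ± 0.49, SE, adjusted p = 0.00173, limma). The other 11 were Utp3, Utp20, Nop14, Noc4l, Nop10, Noc2l, Nop53, Rrp15, Exosc3, Exosc5 and Exosc10. The FK866 side is 1 library, and limma takes its spread from the other columns. Utp14b, Utp25, Exosc8, Rrp1 and Nol4l were within 2-fold.

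By the tables, 1 gene was more than 2-fold higher in 4-cell FK866 embryos, Rrp8, and 1 lower, Rrp1, against 21.2% and 13.4% of all 7420 genes. The median was -0.22 over the 29 genes and 0.10 over all genes. No gene of the 29 passed limma at the adjusted threshold, none had an unadjusted p below 0.05, where 3.88% of all genes were higher and 1.75% lower at that level, and 0.0934% of all genes rose and 0.00849% fell. Rrp9 was at 129 and 114 FPKM against 98.1 and 145 FPKM, and Utp4 at 93.0 and 47.3 FPKM against 33.0 and 42.1 FPKM.

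The effect of NMN at the 4-cell stage also depended on the reading. By the headers, 14 of 29 genes were more than 2-fold higher with FK866+NMN than with FK866 and none lower, against 25% and 34.7% of all genes; the median was 0.81, and -0.29 over all genes. Utp4 stood at 44.2 FPKM, Rrp9 at 29.4 FPKM and Nol9 at 65.8 FPKM, against 1.73, 5.97 and 11.7 FPKM with FK866. These 3 were past the adjusted threshold of limma, as were 2.08% of all genes upwards and 4.64% downwards, but each side is 1 library and the fit takes the spread from other columns, so the difference has no replicate check of its own. By the tables no gene was past 2-fold, against 14.8% of all genes higher and 11.5% lower, with a median of -0.08 beside 0.02 over all genes. No gene passed limma at the adjusted threshold by the tables, where 0.119% of all genes rose and 0.00849% fell, and 1, Utp3, was higher at an unadjusted p below 0.05, against 2.32% of all genes.

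For TSA the direction turned with the reading. Where the header says late 2-cell TSA, 13 of 29 genes were more than 2-fold higher than in control and 1, Utp25, was lower, against 23.2% and 41.3% of all genes, with a median of 0.90 beside -0.44; Utp3 and Noc4l rose in limma, where 3.63% of all genes did and 7.39% fell. These are the values given above for the 4-cell control by the tables. By the tables, TSA was taken as the library headed 4-cell FK866, the column that remained. None of 27 genes tested was more than 2-fold higher and 16 were lower, against 30.1% and 29.7% of all 9420 genes. The median was -1.36 beside 0.07. In limma Utp4, Rrp9 and Nol9 then fell against control (adjusted p = 0.00458, 0.00086 and 0.00566, limma), where 2.58% of all genes fell and 5.96% rose. In this reading the share of lower genes among the small and large subunit genes was 4 of 9 and 6 of 8, and Exosc2, Exosc3, Exosc5 and Exosc10 were the exosome genes past 2-fold.

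In the column headed late 2-cell Sirt1, 12 of 29 genes were more than 2-fold higher than in control and 1, Utp25, was lower, against 24.3% and 36.6% of all genes, with a median of 0.86 beside -0.28. Nop10 rose in limma, to 171 and 115 FPKM (adjusted p = 0.0497, limma), where 3.03% of all genes did and 5.46% fell. The knocked-down gene itself overlapped the control in this column, as given above. By the tables the knockdown was taken as the library headed 4-cell FK866+NMN. Sirt1 was low there, at 11.3 FPKM, but also in the library headed 4-cell FK866, at 7.61 FPKM. In the library headed 4-cell FK866+NMN, 2 of 29 genes, Exosc9 and Utp20, were more than 2-fold higher and 7 were lower. The shares of all 8622 genes were 16.4% and 28.2%, and the median was -0.34 beside -0.21. The 7 were Rrp9, Rrp1, Rrp15, Gnl2, Exosc2, Exosc3 and Exosc10. No gene of the 29 passed limma at the adjusted threshold, where 0.815% of all genes rose and 0.17% fell, and at an unadjusted p below 0.05, 3 were lower, against 3.65% of all genes. Rrp9 was at 29.4 FPKM, Exosc3 at 34.2 FPKM and Exosc10 at 16.2 FPKM in this library, each below both control libraries.

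**Figure D5:**
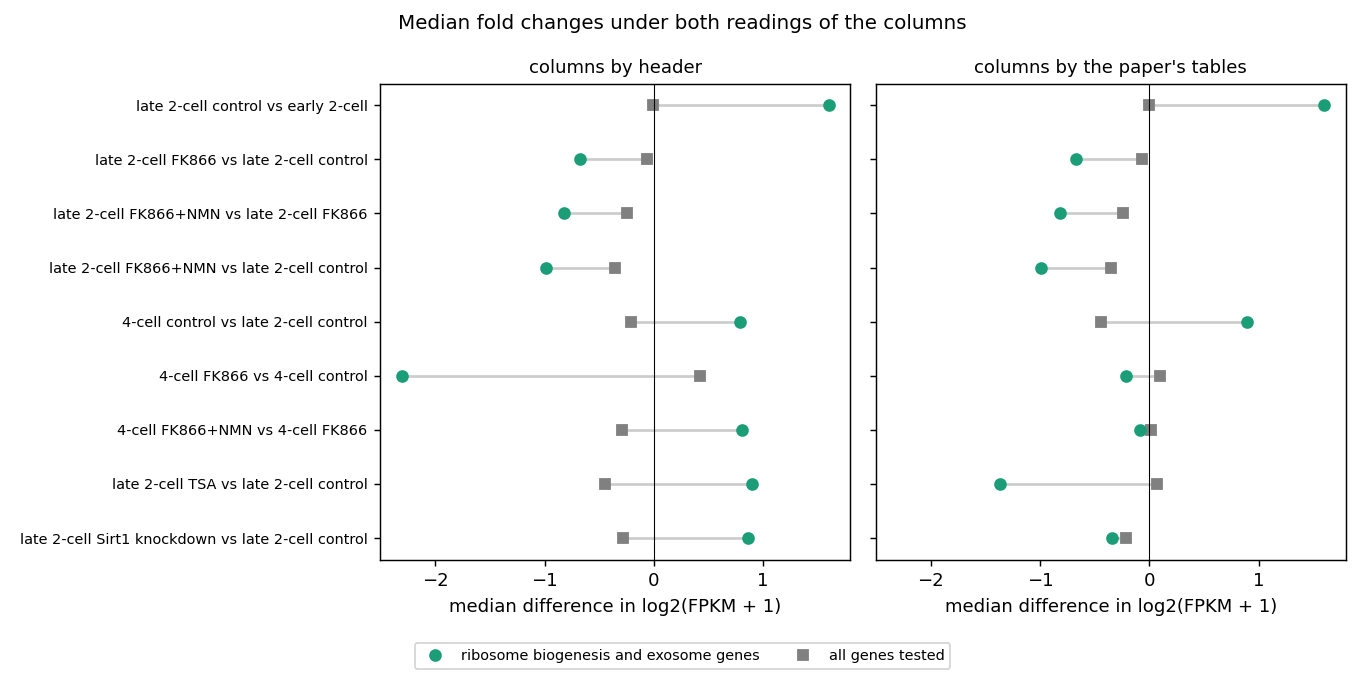
Median difference in log2(FPKM + 1) for each comparison, over the 27 to 29 ribosome biogenesis and exosome genes tested (green circles) and over all genes tested (grey squares), with columns assigned by header (left) and by the tables of the paper (right). The top 4 comparisons are the same in both panels; below them the medians for 4-cell FK866 (-2.31 and -0.22) and TSA (0.90 and -1.36) change most between panels.

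The list of 84 other factors followed each reading. By the headers 68 were more than 2-fold lower and 3 higher in 4-cell FK866 than in 4-cell control, with a median of -2.27. Over all genes 32.9% were lower and 41.8% higher. Under the other reading 6 were lower and 5 higher, against 13.4% and 21.2% of all genes, and none passed limma. Ppan, a large subunit factor, stood at 0.0533 FPKM in the library headed 4-cell FK866, against 139 FPKM per library in the column headed 4-cell control and 40.6 FPKM per library in late 2-cell control. Isg20l2, an exonuclease of ribosomal RNA processing, was listed at 0 there and at 85.2 FPKM per library in the column headed 4-cell control. Mphosph6, an exosome cofactor, was among the 3 that were higher. It stood at 260 FPKM in the library headed 4-cell FK866 and 36.2 FPKM per library in the column headed 4-cell control. In late 2-cell control it stood at 344 FPKM per library. For TSA by the tables, 57 were lower and 2 higher than in control, against 29.7% and 30.1% of all genes, with a median of -1.41. Where the header says late 2-cell TSA, 34 were higher and 7 lower, against 23.2% and 41.3% of all genes. In the column headed late 2-cell Sirt1 33 were higher and 4 lower, against 24.3% and 36.6%.

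The difference of the FK866 effect between the 4-cell and the late 2-cell stage was tested directly. By the headers it was past the adjusted threshold of limma for 5 of the 29 genes, Nop10, Utp3, Utp4, Rrp9 and Exosc3, all with a more negative effect at the 4-cell stage. Of all 11779 genes, 1186 passed. By the tables no gene passed, among the 29 or in all, and 3 of the 29 had an unadjusted p below 0.05, beside 838 of all 11779 genes.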

How the data were processed

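The authors used HISAT2 to align the RNA-seq reads of 18 samples to mm10 and featureCounts to assign them to genes, and deposited FPKM values in 9 columns, 1 per group; the submitters' notes also name CASAVA 1.4. The 24 CUT&Tag samples were not analysed here. Rows of chromosomes 1 to 11 with all values and a unique symbol were kept. FPKM times exon length (GENCODE M21, GRCm38) gave whole reads for 1 or 2 libraries per column. The exon length of Noc2l (4160 in place of 2867 bases) was set after seeing the data so that all its values were whole reads. Levels are FPKM per library.

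Differences are on log2(FPKM + 1), were taken for genes that reached 1 FPKM per library in 1 or both columns, and were counted past 2-fold. The recovered libraries were tested with limma 3.58.1 in R 4.3.3 on the same scale (1 fit over 16 libraries, trended variance, Benjamini-Hochberg over 11779 genes). The recovery of libraries and the limma fit were each tried on simulated data. For the recovery these data were drawn from the recovered reads themselves. For limma they held a large change in a column with 2 libraries, so smaller changes and columns with 1 library were not covered. The strand used in counting is not given in the sources used here. Exons shared with a gene of the opposite strand may therefore hold reads of both. Examples are Noc2l with Samd11 (20.9% of its 2867 GENCODE exon bases) and Exosc9 with Ccna2 (10.8%). The named genes are all members of the symbol rule, Sirt1, and of the other list the 2 largest rises and falls of a comparison. The members and lists were chosen with earlier results of these data known. Alternatives tried were a pseudocount of 0.1 or 5, a 5 FPKM minimum or none, centring on the median, leaving out a library, limma calls, and the assignment of columns by the paper's tables. Scripts ran in Python 3.11.15 with pandas 2.3.3, numpy 2.4.6 and matplotlib 3.10.9.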

Additional observations from a re-analysis of the deposited data

Results flagged for a closer look

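With columns taken by their headers, the FK866 effect differed between the 4-cell and the late 2-cell stage for 5 of the 29 genes. This was an interaction contrast of limma (adjusted p below 0.05 over 11779 genes), which 1186 of all genes passed. The effect at the 4-cell stage minus that at the late 2-cell stage, on the log2 scale, was -2.66 ± 0.66 (SE) for Nop10, -2.02 ± 0.54 for Exosc3, -2.37 ± 0.62 for Utp3, -3.65 ± 0.89 for Utp4 and -2.29 ± 0.56 for Rrp9. The 4-cell side rests on the single library headed 4-cell FK866, whose summed 2-cell markers were 272 FPKM, against 46.7 and 50.3 FPKM in the column headed 4-cell control. With columns taken by the tables of the paper none of the 5 passed, and the adjusted p of Rrp9 was 0.533.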

How the results depend on the processing

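Of 170 alternative values 129 kept their direction and stayed within 1.5 times the reported count, or, for a median, within 1 SD over pairs of libraries (for 4-cell FK866+NMN, the mean SD of the other comparisons); 38 moved further and 3 reversed; the cause was not tested. Limma calls, in place of genes past 2-fold, numbered 12 for late against early 2-cell (20 past 2-fold), 0 for FK866 (10), 1 for FK866+NMN against FK866 (14), 5 against control (13), and by the headers 2 for 4-cell control (11), 14 for 4-cell FK866 (24), 3 for 4-cell FK866+NMN (14), 2 for TSA (14) and 1 for Sirt1 (13). With a pseudocount of 5 the counts past 2-fold were 4 for FK866, 6 for FK866+NMN against FK866, 7 for 4-cell control, 9 for 4-cell FK866+NMN and 6 for Sirt1, and the medians 1.17 for late against early 2-cell, -0.34 for FK866+NMN against FK866, -1.69 for 4-cell FK866 and 0.66 for Sirt1. With a pseudocount of 0.1 the 4-cell FK866 median was -2.58, and with at least 5 FPKM that of late against early was 1.98. Centred on all genes, the medians were -0.64 for FK866+NMN against control, 1.00 for 4-cell control, -2.73 for 4-cell FK866, 1.10 for 4-cell FK866+NMN, 1.34 for TSA and 1.14 for Sirt1. With columns by the tables, 4-cell FK866 had 2 genes past 2-fold and a median of -0.22, 4-cell FK866+NMN had 0 and a reversed median of -0.08, the medians of TSA (-1.36) and Sirt1 (-0.34) also reversed, and 0 genes passed the test of the FK866 effect between stages (5 by the headers). Leaving out 1 library at a time gave medians of 1.14 to 1.76 for late against early 2-cell, -0.83 to -0.37 for FK866, -1.19 to -0.61 for FK866+NMN against FK866, -1.67 to -1.05 against control, -2.36 to -2.09 for 4-cell FK866 and 0.75 to 1.21 for TSA, and counts of 6 to 14 for FK866, 9 to 21 for FK866+NMN against FK866 and 7 to 14 for 4-cell control. Columns with 1 library could not be left out. No paired analysis was possible because the recovered libraries carry no replicate number.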
